A study of Mus musculus with 24 samples.

Results

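Pieces of mouse peritoneal metastasis were sorted into 2 classes by set thresholds of Wt1, a transcription factor gene of the coelomic lining. Of the 24 RNA libraries of the study, 22 could be placed. Members were chosen by the deposited Wt1 level in TPM, a transcript's share of all transcripts of a library scaled to a fixed total. The Wt1-high class took in every library with 100 TPM of Wt1 or more, 10 in all, and the Wt1-low class every library with 50 TPM or less, 12 in all. Because a measured level set the classes, each difference between them below is a description and carries no test. Combination replicate 5 was left out by the rule, with 0 TPM of Wt1 but 68.8 TPM of the T cell gene Cd3e and 89.6 TPM of the B cell gene Ms4a1. Butyrate replicate 3, at 71.4 TPM of Wt1, lay between the thresholds and entered neither class. The nearest libraries on either side of the gap were control replicate 1 at 131 TPM and butyrate replicate 6 at 28.0 TPM.

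The samples were peritoneal tissue of mice in 4 groups of 6, given propionate, butyrate, a combination of both, or neither (control). Both compounds are short fatty acids that gut bacteria release from dietary fibre. The series title ties the samples to mannose, anti-PD-1 therapy and ovarian cancer. The labels give no dose, time, mouse strain, age, tumour line or antibody, and do not state whether each replicate is its own animal. The p-values below therefore reflect variation among the samples as deposited, some of which may be technical.

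The peritoneum is lined by mesothelium, a single layer of flat cells that keeps both keratins and mesenchymal genes. Mesothelial cells carry Wt1, the surface glycoprotein mesothelin (Msln) and keratins such as Krt8, and the epithelium over the ovary arises from the same coelomic lining and shares much of this programme. Carcinoma cells of ovarian origin can carry these genes too. Beneath the lining of the body wall lies skeletal muscle, whose thin filaments are built from the actin of Acta1. In bulk tissue, fewer cells of a type and less RNA per cell cannot be told apart.

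The Wt1-high libraries held 14319 to 14949 genes at 1 TPM or more, and the Wt1-low libraries 12618 to 14107. The top 50 genes by abundance held 31.0 to 46.4% of TPM in the Wt1-high class and 44.7 to 59.5% in the Wt1-low class. Transcripts of the mitochondrial genome took 12.8 to 20.5% against 16.6 to 26.8%, and 16 skeletal muscle markers took 2.98 to 9.37% against 8.85 to 15.3%. Since TPM sums to a fixed total, genes that take less of it leave more for the rest. The sequencing depth is unknown.

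Wt1 ranged from 131 to 368 TPM in the Wt1-high class, with a median of 236, and from 0.37 to 28.0 TPM in the Wt1-low class, with a median of 2.17. The gap between the classes follows from the rule. Wt1 was listed as 8 transcripts, and the most abundant held 41.2 to 45.7% of its TPM in every Wt1-high library. Krt8, a keratin of simple epithelia, was at 95.6 to 292 TPM (median 152) in the Wt1-high class and at 0.30 to 23.3 TPM (median 2.63) in the Wt1-low class. Msln was at 39.1 to 80.0 TPM (median 47.5) in the Wt1-high class and at 1.24 to 11.04 TPM (median 5.04) in the Wt1-low class. For both genes control replicate 1 was lowest and control replicate 2 highest among the Wt1-high libraries, and the classes did not overlap. Adjusted for treatment, the differences on the log2(TPM + 1) scale were 5.74 ± 0.62 for Wt1, 5.32 ± 0.59 for Krt8 and 3.25 ± 0.29 for Msln (limma, ± SE, 10 against 12 libraries, here and below).

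Acta1 ran the other way and did not separate the classes. It was at 5384 to 19475 TPM (median 10821) in the Wt1-high class and at 16282 to 26808 TPM (median 19695) in the Wt1-low class, a difference of -0.99 ± 0.20. Control replicate 6, a Wt1-high library with 257 TPM of Wt1, held the 19475 TPM of Acta1 and lay inside the Wt1-low range. Acta1 was thus abundant in every library of both classes. Butyrate replicate 3 had 47.8 TPM of Krt8, 22.9 TPM of Msln and 17310.5 TPM of Acta1, so Krt8 and Msln lay between the classes there as Wt1 did. In combination replicate 5 the 4 genes did not run together: Krt8 was at 123 TPM, while Msln was at 0.49 TPM and Acta1 at 2.52 TPM.

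**Figure D1:**
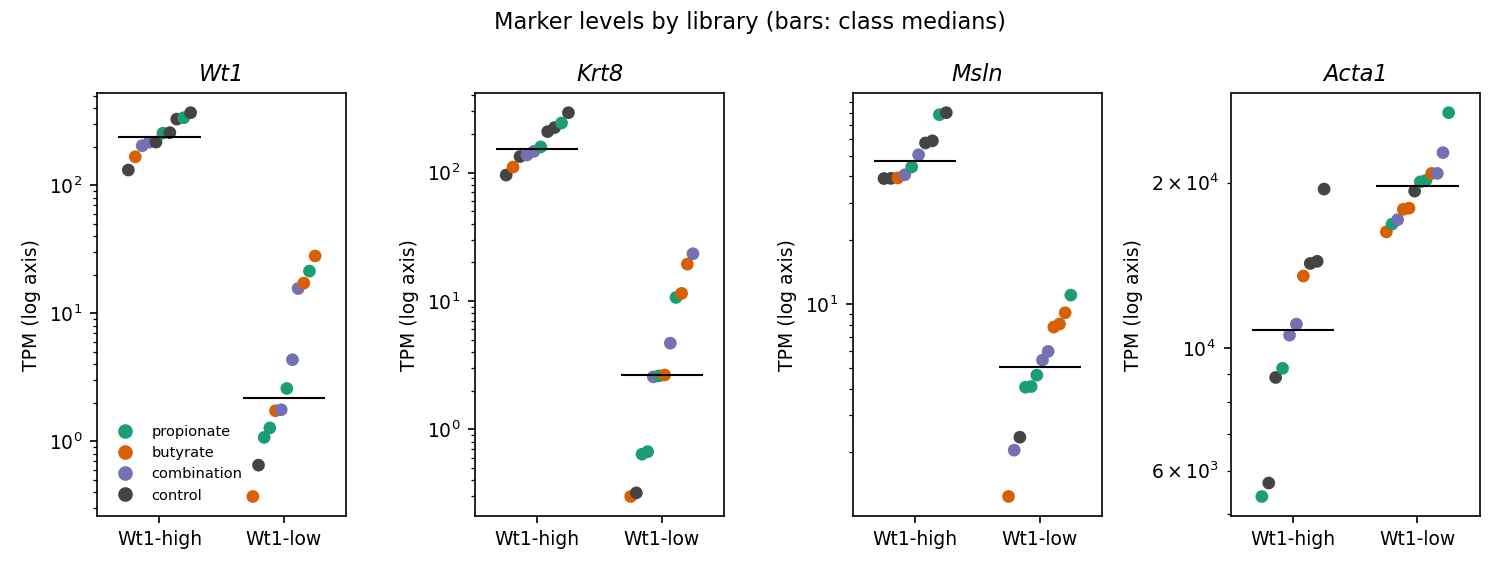
TPM of Wt1, Krt8, Msln and Acta1 in each library on log axes, for the 10 Wt1-high libraries on the left of each panel and the 12 Wt1-low libraries on the right, coloured by treatment, with bars at the class medians. Wt1, Krt8 and Msln leave a gap between the classes, while Acta1 reaches 19475 TPM in a Wt1-high library and overlaps.

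How the 4 markers ran together inside each class is given as a description with no test, since Wt1 set the classes and the others were named with it. In the 10 Wt1-high libraries Wt1 and Krt8 had Pearson's r of 0.97 and Spearman's rho of 0.95, and Wt1 and Msln had 0.86 and 0.90. Wt1 and Acta1 had r of -0.69 and rho of -0.61 there. In the 12 Wt1-low libraries r and rho with Wt1 were 0.94 and 0.89 for Krt8, 0.70 and 0.76 for Msln, and -0.44 and -0.38 for Acta1.

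All markers of a library share its fixed TPM total. With the 2 libraries farthest from the class median of Wt1 left out, r was 0.95 for Krt8, 0.85 for Msln and -0.59 for Acta1 in the Wt1-high class. In the Wt1-low class it was 0.92 for Krt8, 0.56 for Msln and -0.10 for Acta1. Treatment groups held too few libraries of a class for values within a treatment.

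**Figure D2:**
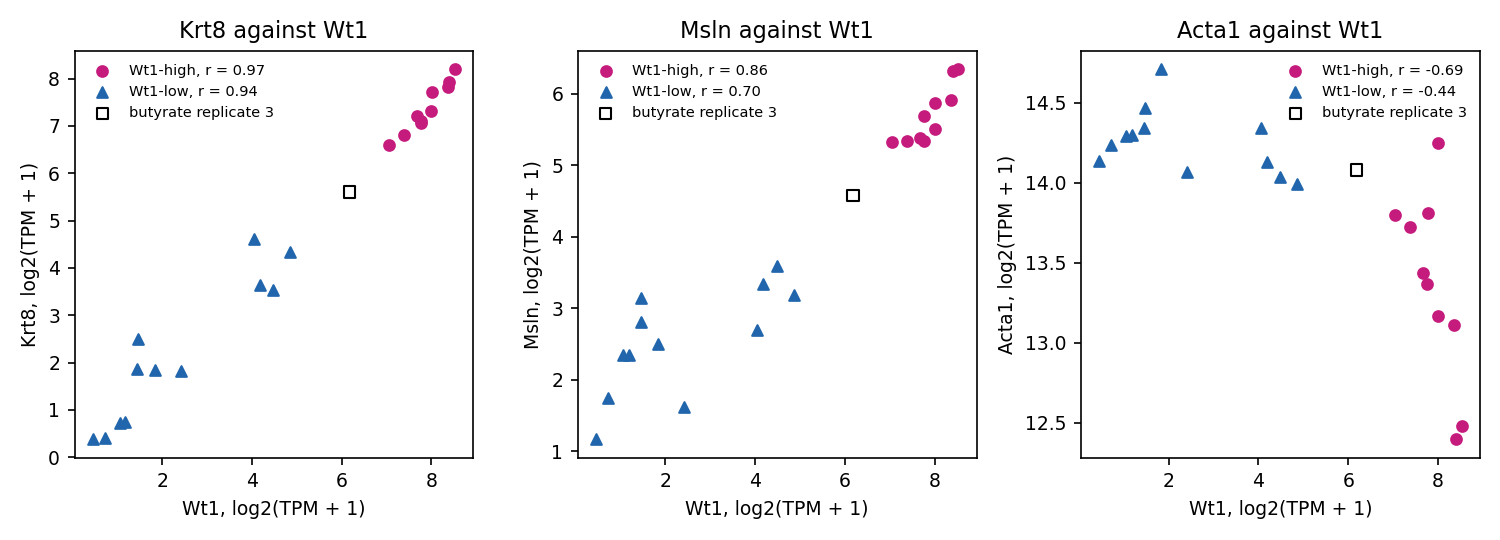
Krt8, Msln and Acta1 against Wt1, each as log2(TPM + 1), with Wt1-high libraries, Wt1-low libraries and butyrate replicate 3 marked apart and Pearson's r given per class. Krt8 follows Wt1 closely within both classes (r = 0.97 and 0.94), whereas Acta1 falls more loosely (r = -0.69 and -0.44).

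Promoters are shown for a pair of genes higher in the Wt1-high class, Amhr2 and Krt8, and for the muscle actin gene Acta1. Amhr2, the receptor for anti-Müllerian hormone, was at 188 to 506 TPM (median 322) in the Wt1-high class against 5.07 to 45.0 TPM (median 10.96) in the Wt1-low class. The windows run from 250 bases before to 50 after the RefSeq start of each gene on build GRCm38.p6, an older build than that of the deposited values. They lie at chr15:102445117-102445416 on the plus strand (Amhr2), chr15:102004293-102004592 on the minus strand (Krt8) and chr8:123894726-123895025 on the minus strand (Acta1). Capitals mark every match to 4 motifs: AAGGTCA, read by Nr5a1, AGATAA, read by GATA factors, and CANNTG, read by the muscle bHLH factors, each sought on both strands, and TATAAA, the TATA box, on the gene's own strand.
Amhr2: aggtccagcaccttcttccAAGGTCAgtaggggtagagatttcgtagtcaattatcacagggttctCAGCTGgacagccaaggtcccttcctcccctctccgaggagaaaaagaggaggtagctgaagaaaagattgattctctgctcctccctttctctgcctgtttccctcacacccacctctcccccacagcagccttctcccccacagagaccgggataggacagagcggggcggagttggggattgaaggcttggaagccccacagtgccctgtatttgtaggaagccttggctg
Krt8: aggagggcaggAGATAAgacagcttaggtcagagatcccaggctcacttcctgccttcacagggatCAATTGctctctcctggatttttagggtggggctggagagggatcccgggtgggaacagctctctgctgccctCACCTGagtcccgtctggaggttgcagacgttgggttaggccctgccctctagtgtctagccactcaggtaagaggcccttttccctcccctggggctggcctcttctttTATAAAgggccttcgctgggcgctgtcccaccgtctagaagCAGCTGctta
Acta1: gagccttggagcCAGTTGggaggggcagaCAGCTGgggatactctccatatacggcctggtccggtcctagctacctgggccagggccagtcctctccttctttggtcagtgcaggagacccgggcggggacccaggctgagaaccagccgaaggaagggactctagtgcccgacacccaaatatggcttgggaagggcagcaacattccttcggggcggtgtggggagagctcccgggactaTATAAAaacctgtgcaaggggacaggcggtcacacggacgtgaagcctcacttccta

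AAGGTCA stood 231 bases before the start of Amhr2, and AGATAA 239 bases before the start of Krt8. TATAAA began 1 base before the RefSeq start of Krt8, running across it, and 7 bases before that of Acta1. Whether either serves as a TATA box was not tested. CANNTG occurred 2 times in the Acta1 window, 3 times in that of Krt8 and once in that of Amhr2. Over the 32851 promoters of the reference, 4.72% held AAGGTCA, 11.2% AGATAA, 72.3% CANNTG and 8.32% TATAAA. Among the 3029 promoters matched to genes called higher, the shares were 2.64, 6.60, 63.8 and 4.42%, and among the 85 of genes called lower 10.6, 8.24, 80.0 and 10.6%. For the genes analysed, 13853 promoters in all, they were 3.28, 6.70, 64.7 and 4.72%. A match is a run of letters and not a bound site.

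Across the transcriptome, 15006 genes had at least 1 TPM in at least 6 of the 22 libraries. A gene was called where the classes differed by 1 log2 unit or more and did not overlap. By that rule 3065 genes (20.4%) were higher and 82 (0.546%) lower in the Wt1-high class. Counts called higher in the families and lists below stand beside those 20.4% of all genes. The median difference over all genes was 0.56, and 77.3% of genes lay above 0, so values of listed genes are read against that median. Median-of-ratios scaling moved the median to 0.04 and quantile normalization to -0.07, with 1401 and 1166 genes called higher and 794 and 857 called lower. The split between higher and lower calls therefore depends on the scaling. A gene absent from the Wt1-low class entered the analysis only through the Wt1-high class, so counts of higher genes describe and support nothing.

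Cst12, a cystatin gene, had the largest difference of all named genes, at 790.4 to 1989 TPM (median 1251) in the Wt1-high class against 0 to 165 TPM (median 3.12) in the Wt1-low class (7.30 ± 1.14). A second cystatin, Cst8, was at 56.8 to 152 TPM against 0 to 11.9 TPM (5.44 ± 0.58). Of 16 cystatin genes analysed, a family picked out after its values were seen, 8 were called higher. Cystatins inhibit cysteine proteases or derive from such inhibitors.

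Next by size came Lgals7, a galectin of stratified epithelia, at 217 to 578 TPM against 0.13 to 45.1 TPM (6.42 ± 0.78). Stra6, the cell surface receptor that takes up retinol, was at 62.5 to 242 TPM in the Wt1-high class and 0.21 to 14.1 TPM in the Wt1-low class (5.55 ± 0.56). Aqp5, a water channel of secretory epithelia, differed by 5.91 ± 0.72, and Lsr, a protein of tricellular junctions, by 5.17 ± 0.54. The remaining named genes were Kctd14 (6.39 ± 0.81), the insulin-like growth factor binding protein gene Igfbp2 (6.11 ± 0.72), the aldo-keto reductase gene Akr1cl (6.09 ± 0.71), Tmem184a (5.16 ± 0.49) and AA467197 (5.04 ± 0.57). Butyrate replicate 6 was the highest Wt1-low library for all of these except Aqp5, for which it was combination replicate 2.

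Igkv6-23, a variable segment of the antibody kappa chain, was the single immune gene among the 15 named. It was at 12.8 to 454 TPM (median 51.6) in the Wt1-high class against 0 to 7.07 TPM (median 0.745) in the Wt1-low class (5.20 ± 0.67). Control replicate 4 at 454 TPM and combination replicate 3 at 448 TPM stood far above the others of their class, the next being combination replicate 4 at 118 TPM. Variable segments are near copies of each other and share reads, so a single segment is uncertain. Of the 65 kappa and 69 heavy chain segments analysed, families looked at after this value was seen, 1 and 6 were called higher and the median differences were 3.28 and 2.82. Both shares called lay below the 20.4% of all genes called higher. The classes mostly overlapped for these segments although their medians were far apart.

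The mesothelium list was higher in the Wt1-high class, but it holds Wt1 itself, the gene that set the classes. Of its 12 genes, all were analysed and 8, Wt1 among them, were called higher, with a median of 2.98. Upk3b, a uroplakin of the mesothelial surface, was at 52.2 to 230.4 TPM (median 130.4) in the Wt1-high class and at 1.79 to 19.6 TPM (median 6.51) in the Wt1-low class (4.09 ± 0.42). Rspo1, a secreted enhancer of Wnt signalling, was at 30.5 to 83.8 TPM against 1.63 to 9.72 TPM (3.38 ± 0.27). Pkhd1l1 (3.18 ± 0.25) and the CA125 mucin gene Muc16 (3.15 ± 0.27) also did not overlap. Muc16 is a serum marker of ovarian carcinoma and is carried by normal mesothelium as well. The summed TPM of the list, Wt1 included, was 376 to 998 in the Wt1-high class and 15.6 to 123 in the Wt1-low class. Combination replicate 5 had 21.8.

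The epithelium and carcinoma list split. The simple-epithelial keratins Krt18 (74.1 to 209 TPM against 0.39 to 41.5 TPM, 4.75 ± 0.55) and Krt19 (94.98 to 313 TPM against 2.19 to 43.4 TPM, 4.26 ± 0.47) were called higher, as was the folate receptor gene Folr1 (61.1 to 133 TPM against 0.13 to 11.2 TPM, 4.76 ± 0.42). With Krt8 these made 4 called of 9 analysed, with a median of 1.33 (0.91 after median-of-ratios scaling, 0.64 after quantile normalization). Krt7 overlapped, at 1.58 to 9.19 TPM in the Wt1-high class and 0.06 to 5.14 TPM in the Wt1-low class.

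The other 5 genes of that list were too low to analyse. Epcam, an adhesion protein found on most carcinomas, was at 0.19 to 0.83 TPM in the Wt1-high class and at 0 to 11.5 TPM in the Wt1-low class. Cldn4, a tight junction claudin, reached 0.16 TPM in the Wt1-high class and 6.67 TPM in the Wt1-low class, and Cldn3 reached 1.30 and 3.89 TPM. Pax8, a factor of Müllerian epithelium, stayed at or below 0.78 TPM in the Wt1-high class and 0.68 TPM in the Wt1-low class. The highest Wt1-low values of Epcam, Cldn3 and Cldn4 were all in combination replicate 2, and combination replicate 5 had 62.6, 25.1 and 47.5 TPM of them. Mesothelium and ovarian carcinoma share many of these genes, and which of them the transcripts came from was not tested.

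**Figure D3:**
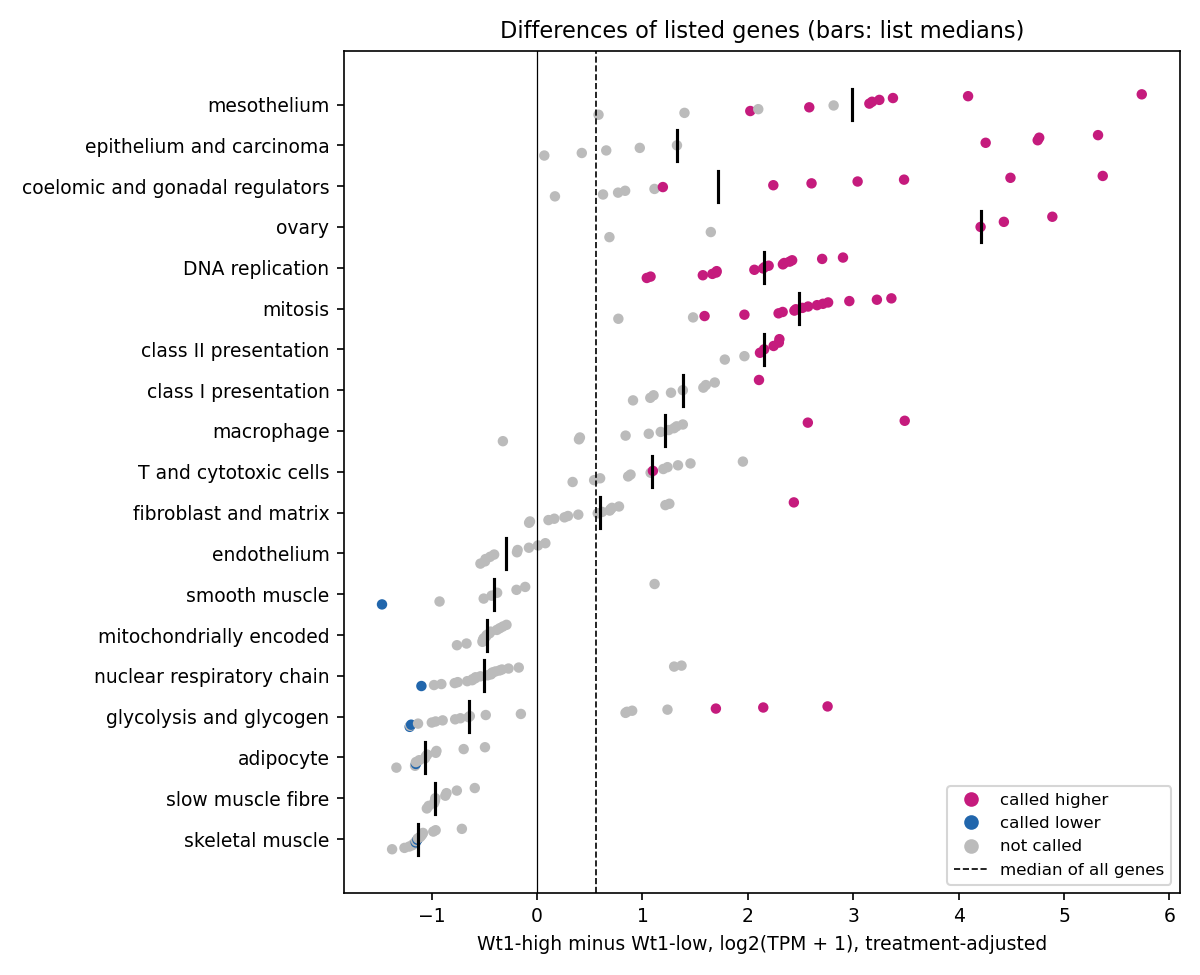
Treatment-adjusted difference, Wt1-high minus Wt1-low, of each analysed gene of the lists in log2(TPM + 1), with bars at list medians, colours for called genes and a dashed line at the median of all genes, 0.56. Mesothelium (a list that holds Wt1 itself), ovary, mitosis and replication genes lie to the right, muscle and adipocyte genes to the left of 0.

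Regulators of the coelomic epithelium and the gonad were also higher in the Wt1-high class. Gata4, a zinc finger factor needed for gonad formation, was at 46.0 to 140.3 TPM (median 83.7) in the Wt1-high class against 0 to 9.63 TPM (median 0.555) in the Wt1-low class (5.37 ± 0.52). Nr5a1, the steroidogenic factor that switches on genes of steroid synthesis, was at 20.2 to 58.0 TPM (median 37.4) against 0 to 3.52 TPM (median 0.155), a difference of 4.49 ± 0.36. Neither gene overlapped, and each was at 0 in at least 1 Wt1-low library. Gata6 (3.48 ± 0.26), the signalling gene Wnt4 (3.04 ± 0.22), the sialomucin gene Podxl (2.60 ± 0.23) and the retinaldehyde dehydrogenase gene Aldh1a1 (2.24 ± 0.17) were called higher too. In all, 7 of 12 analysed genes of this list were called, with a median of 1.72, and Lhx9 and Tcf21 were below the filter. Butyrate replicate 3 lay between the classes for Gata4 (21.4 TPM) and Nr5a1 (11.3 TPM).

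The ovary list was called in part. Star, which moves cholesterol into mitochondria for steroid synthesis, was at 41.5 to 137 TPM (median 84.2) in the Wt1-high class and 0.70 to 7.97 TPM (median 1.22) in the Wt1-low class (4.89 ± 0.36). Amhr2, whose promoter is printed above, differed by 4.43 ± 0.43 and Inha, the inhibin alpha subunit, by 4.21 ± 0.31. Later steps of steroid synthesis were low: Cyp11a1 was at 1.21 to 6.75 TPM against 0.04 to 1.28 TPM, and Cyp17a1 at 0.22 to 0.65 TPM against 0 to 0.17 TPM. Foxl2, the granulosa cell factor, did not exceed 0.05 TPM in the Wt1-high class or 0.02 TPM in the Wt1-low class, and the follicle-stimulating hormone receptor gene Fshr was listed at 0 in all 22. Of 10 listed genes 5 were analysed and 3 called, while Foxl2 and Fshr were at or near 0. Which tissue the transcripts of Star, Amhr2 and Inha came from was not tested.

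Proliferation genes were higher in the Wt1-high class. All 16 replication genes were called, with a median of 2.15, and 14 of 16 mitosis genes, with a median of 2.49. Cdk1, the kinase that drives entry into mitosis, was at 27.2 to 92.3 TPM (median 43.1) in the Wt1-high class and 0.76 to 12.0 TPM (median 3.64) in the Wt1-low class (3.36 ± 0.35). Top2a, a topoisomerase that untangles chromosomes, differed by 3.22 ± 0.39 and Birc5, which encodes survivin, by 2.96 ± 0.28. Among replication genes Rrm1, a subunit of ribonucleotide reductase, was at 68.7 to 190 TPM against 8.11 to 22.2 TPM (2.90 ± 0.21), and the helicase subunit Mcm6 differed by 2.70 ± 0.25. Aurka and Cenpf were the mitosis genes that were not called. After median-of-ratios scaling the list medians were 1.58 for replication and 2.04 for mitosis. Which cells cycle was not tested.

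Skeletal muscle genes lay below 0 as a group. Counts called lower in this and later lists stand beside the 0.546% of all genes called lower. All 16 had negative differences, with a median of -1.13, and 2 were called lower, Tnnc2 and Tnni2, since the classes overlapped for the rest. Tnni2, the fast-fibre troponin I, was at 2573 to 7670.1 TPM (median 4864) in the Wt1-high class and 7917 to 13593 TPM (median 10162) in the Wt1-low class (-1.15 ± 0.20). Differences of the giant sarcomere proteins titin (Ttn) and nebulin (Neb) were -1.38 ± 0.41 and -1.21 ± 0.28, with overlap. Actn3, an actinin of fast fibres, was at -1.26 ± 0.23, and the fast myosin gene Myh4 at -1.18 ± 0.28. The muscle list had a median of -1.75 after median-of-ratios scaling and -0.96 after quantile normalization.

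The other muscle lists also lay below 0. The 9 slow-fibre genes had a median of -0.97 (-1.58 after median-of-ratios scaling) and none was called, with Myh7, the slow myosin, at -1.05 ± 0.30 and myoglobin (Mb) at -1.03 ± 0.20. Genes that couple excitation to calcium release had a median of -1.11 over 13 (-1.71 after the same scaling), with Jsrp1 called (91.9 to 267 TPM against 297 to 483 TPM) and the calcium buffer gene Pvalb at -1.30 ± 0.20. The 10 regulators of muscle and its stem cells had a median of -0.76 (-1.17 after it), and Myf6, a bHLH factor of mature fibres, was at 24.6 to 72.9 TPM against 70.5 to 190.2 TPM (-1.35 ± 0.18). Smooth muscle genes differed less, with a median of -0.41 over 8 (-0.99 after it). Their contractile actin Acta2 was at -0.38 ± 0.14, the enteric actin Actg2 at 1.11 ± 0.22, and only Lmod1 was called lower.

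The 15 named genes lower in the Wt1-high class were led by Lrrc14b, at 2.51 to 18.3 TPM (median 11.7) in the Wt1-high class and 27.8 to 47.6 TPM (median 32.7) in the Wt1-low class (-1.69 ± 0.27). Lmod1, which nucleates actin filaments, was at 2.69 to 13.3 TPM against 14.5 to 40.8 TPM (-1.47 ± 0.24). Several serve muscle fibres: Perm1, a regulator of muscle oxidative metabolism, at -1.39 ± 0.26, Tmod1, which caps thin filaments, at -1.34 ± 0.18, and Klhl40, a stabiliser of thin filaments, at -1.30 ± 0.24. The others were St8sia5, Plet1os, Asb5, Usp13, Smco1, Pacsin3, Plin4, Eno3, Fbxo40 and Pgam2, between -1.35 and -1.20. Control replicate 2 and propionate replicate 3, with 368 and 336 TPM of Wt1, were the lowest libraries for most of these genes. The number called lower rested on single libraries: it was 42 without propionate replicate 3 and 138 without butyrate replicate 6.

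**Figure D4:**
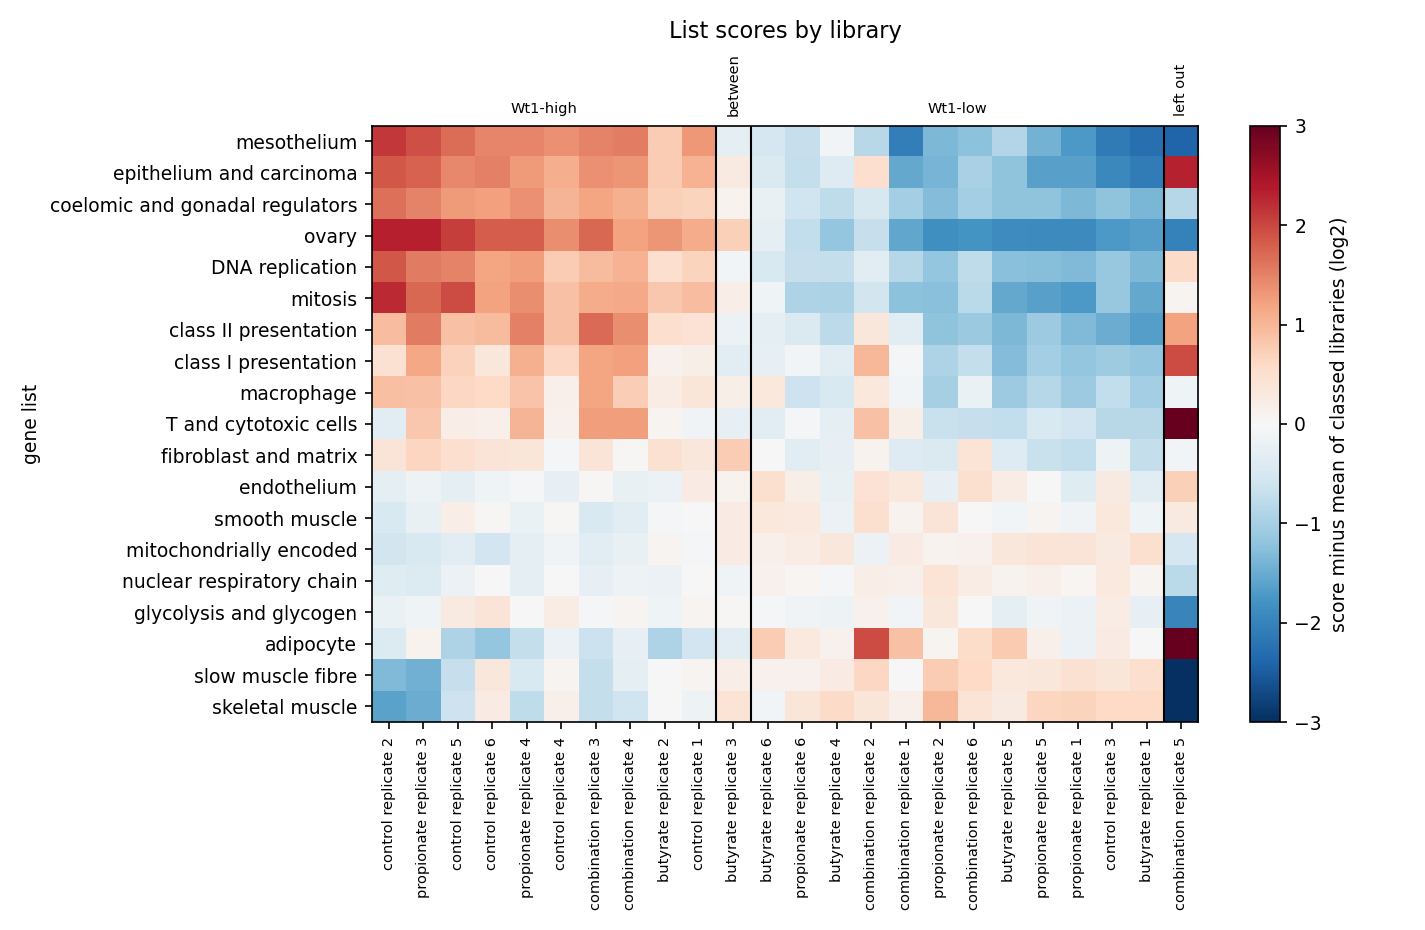
List scores, the mean log2(TPM + 1) of the analysed genes of a list, minus their mean over the 22 classed libraries, for each library in order of Wt1, with colours ending at -3 and 3. Wt1-high libraries are on the left and Wt1-low libraries on the right of butyrate replicate 3, and combination replicate 5 stands last. The mesothelium list holds Wt1 itself.

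Isozymes of energy metabolism differed in opposite directions. Pgam1, the widespread phosphoglycerate mutase, was at 157 to 468 TPM (median 325) in the Wt1-high class and 20.6 to 93.1 TPM (median 38.3) in the Wt1-low class (2.76 ± 0.27). Pgam2, the muscle isozyme of the same step, was at 582 to 1639 TPM (median 1047) against 1753 to 3201 TPM (median 2078), a difference of -1.20 ± 0.19. Both sets of values were free of overlap. The same held for carnitine palmitoyltransferase 1, the gate of fatty acid oxidation: Cpt1a, the liver form, was at 29.8 to 70.4 TPM against 6.47 to 15.5 TPM (2.15 ± 0.19), and Cpt1b, the muscle form, at 20.5 to 58.5 TPM against 62.5 to 134 TPM (-1.15 ± 0.18). These and the further pairs were chosen after their values were seen.

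For phosphofructokinase, Pfkl differed by 2.15 ± 0.21 and the muscle form Pfkm by -1.13 ± 0.19. For enolase, Eno1 differed by 1.24 ± 0.16, with overlap, and the muscle form Eno3 by -1.21 ± 0.21. Among hexokinases Hk1 was called higher (1.70 ± 0.17), while Hk2, the insulin-responsive form, was at -0.90 ± 0.26 with overlap. Cytochrome oxidase followed suit, with Cox8a at 1.37 ± 0.22 and the muscle form Cox8b at -1.10 ± 0.17, and with Cox6a1 at 1.30 ± 0.23 and the muscle form Cox6a2 at -0.98 ± 0.18. Each sign held under both other scalings.

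As whole lists, these pathways lay below 0. The 20 glycolysis and glycogen genes had a median of -0.64, with 3 higher and 2 lower. The 14 fatty acid oxidation genes had -0.42, with 1 higher and 1 lower, and the 22 nuclear respiratory chain genes -0.50, with 1 lower. The shares called higher in these lists lay below the 20.4% of all genes. The 13 mitochondrially encoded genes had -0.48 and none was called, but quantile normalization turned their median to 0.09. Median-of-ratios scaling put the medians of the 4 lists lower, at -1.26, -1.03, -1.12 and -1.10 in that order. Their largest difference was that of mt-Nd3, a subunit of complex I, at -0.76 ± 0.15 (-0.01 with quantile normalization).

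Adipocyte genes were lower in the Wt1-high class on the median, -1.06 over 12 (-1.66 after median-of-ratios scaling), with 1 called. Slc2a4, the insulin-responsive glucose carrier of fat and muscle, was at 42.1 to 115 TPM in the Wt1-high class and 135 to 252 TPM in the Wt1-low class (-1.15 ± 0.17). Adipoq, which encodes adiponectin, was at 38.8 to 183 TPM (median 73.5) against 113 to 604 TPM (median 153), a difference of -1.12 ± 0.29. Combination replicate 2 held the 604 TPM, and within the propionate libraries the difference of Adipoq was -0.20. The adipocyte list had a median of -0.19 there and of -1.68 within the combination libraries, while the skeletal muscle list had -1.75 and -0.96. Whether the class difference depends on treatment was not tested.

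Markers of other tissues a piece could hold were examined too. Pnlip, pancreatic lipase, was at 7.20 to 24.3 TPM (median 16.2) in the Wt1-high class and 0 to 1.65 TPM in the Wt1-low class (3.62 ± 0.25). It was the only pancreas gene of 10 above the filter, and the acinar genes Prss2, Clps and Try4 were listed at 0 in all 22 libraries. The intestinal genes Cdx1 and Cdx2 were at 0 throughout, and Lgals4, the single intestinal gene analysed, was at -0.20 ± 0.22. The erythroid list summed to 650.4 to 5221 TPM in the Wt1-high class and 1066 to 5571 TPM in the Wt1-low class, and its 5 analysed genes had a median of -0.06 (-0.66 after median-of-ratios scaling). The hepatocyte list, with 2 of 8 genes analysed, summed to 89.3 to 225 TPM against 70.5 to 486 TPM, with a median of -0.50 (-1.11 after that scaling). The 8 Schwann cell genes had a median of -0.22 (-0.74 after it).

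Matrix genes lay near the median of all genes, and vessel genes below it. The 16 fibroblast and matrix genes had a median of 0.60, which median-of-ratios scaling turned to -0.02, and 1 was called. That was Timp1, an inhibitor of metalloproteinases, at 36.2 to 82.8 TPM (median 45.4) in the Wt1-high class and 2.46 to 24.5 TPM (median 8.29) in the Wt1-low class (2.44 ± 0.37). Sparc (1.22 ± 0.21) and Postn (1.25 ± 0.25), secreted proteins of remodelled matrix, overlapped. The 10 basement membrane genes had a median of 0.44, negative with median-of-ratios scaling (-0.17) and after quantile normalization (-0.02). Lama5, the laminin chain of epithelial basement membrane, was the exception, at 28.0 to 65.7 TPM against 3.19 to 14.6 TPM (2.35 ± 0.22). The 10 endothelial genes had a median of -0.30 (-0.88 after median-of-ratios scaling), with none called. The shares called in the matrix and basement membrane lists lay below the 20.4% of all genes called higher.

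Antigen presentation by class II stood out among immune lists, with 5 of 7 genes called higher and a median of 2.15. Cd74, the invariant chain, was at 1389 to 3334 TPM (median 2088) in the Wt1-high class and 295 to 1195 TPM (median 452) in the Wt1-low class (2.24 ± 0.22). H2-Eb1 differed by 2.30 ± 0.24, and Ciita, the regulator that switches class II genes on, by 2.11 ± 0.20. Combination replicate 2 was the highest Wt1-low library for each of these genes. The class I list had a median of 1.38 over 9 (0.76 after median-of-ratios scaling), with only Tapbp called (2.11 ± 0.22) and B2m overlapping (1.27 ± 0.23). That share lay below the 20.4% of all genes called higher. The 14 interferon response genes had a median of 0.70 and none was called (0.22 after median-of-ratios scaling, 0.03 after quantile normalization), with the chemokine gene Cxcl9 at 2.68 ± 0.47. Mesothelium, macrophages and B cells can all carry class II genes, and which cells did so was not tested.

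Macrophage genes had a median difference of 1.21 over 12 (0.60 after median-of-ratios scaling), and 2 were called, a share below the 20.4% of all genes. Spp1, which encodes osteopontin, was at 62.0 to 182 TPM (median 105) in the Wt1-high class and 3.23 to 38.6 TPM (median 7.57) in the Wt1-low class (3.49 ± 0.41). Trem2, a lipid receptor of tissue macrophages, was at 14.3 to 34.1 TPM against 1.17 to 8.47 TPM (2.57 ± 0.26). The complement component gene C1qa, common to tissue macrophages, overlapped at 1.30 ± 0.19. Among T cell genes 1 of 12 was called, below the 20.4% of all genes too, and the list median was 1.09 (0.49 after quantile normalization). The called gene was Pdcd1, which encodes PD-1, at 0.73 to 2.22 TPM against 0 to 0.47 TPM (1.10 ± 0.11). The regulatory T cell gene Foxp3 was below the filter, at 0.31 to 1.31 TPM against 0.03 to 0.27 TPM. The B cell list gave 1 of 4, near the share of all genes. It was Blk, at 1.13 ± 0.13, while Ms4a1 stayed below 1 TPM in both classes. The 6 neutrophil genes had a median of -0.08 (-0.55 after median-of-ratios scaling).

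Genes that sense or use short-chain fatty acids gave a median of -0.25 over 10 (-0.59 after median-of-ratios scaling), with none called. Slc16a3, a carrier of lactate and other monocarboxylates that is abundant in muscle, was at -1.05 ± 0.22, and Acss1, a mitochondrial acetate-activating enzyme, at -1.02 ± 0.21. The receptor gene Ffar2 was at 0.24 to 1.12 TPM in the Wt1-high class and 0.37 to 6.25 TPM in the Wt1-low class. Of 15 growth and secreted factor genes, 2 were called higher, Tgfb2 (1.35 ± 0.14) and Pdgfa (1.21 ± 0.15). The list median of 0.37 turned to -0.24 after median-of-ratios scaling and -0.06 after quantile normalization. Of 9 complement genes C1s1 was called (1.63 ± 0.17), with a list median of 0.63 (0.03 after median-of-ratios scaling, 0.16 after quantile normalization). The shares called in the growth factor and complement lists lay below the 20.4% of all genes called higher.

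Treatment labels played no part in setting the classes, so the split of classes over treatments could be tested. Of the classed libraries, 2 of 6 with propionate, 1 of 5 with butyrate and 2 of 5 with the combination were Wt1-high, against 5 of 6 in control. Fisher's exact test, two-sided, gave p = 0.242 for propionate, 0.0801 for butyrate and 0.242 for the combination. The 3 acid groups pooled, 5 of 16 against 5 of 6, gave an exact p of 0.0557. Adjusted over these 4 tests the exact p-values were 0.242, 0.160, 0.242 and 0.160, and none passed 0.05. Without control replicate 3, the 1 Wt1-low control, the pooled test gave an exact adjusted p of 0.0495. Treatment and class were thus unevenly spread, with a single Wt1-low control library and a single Wt1-high butyrate library.

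The class was measured in the treated samples and was unevenly spread over treatments. Contrasts with the class in the fit therefore compare treatments at a given class and are not whole treatment effects. In that fit no gene passed an adjusted p of 0.05 with propionate (limma, 0.0%), while 167 genes lay above and 262 below control with a raw p under 0.05. The smallest adjusted p in limma was 0.99998. Under chance alone about 1 in 20 of the 15006 genes would have a raw p under 0.05, more than the 167 and 262 together. None passed with butyrate either (0.0%), while 178 lay above and 1060 below control with a raw p under 0.05. Gpr132, a proton- and lipid-sensing receptor gene of leukocytes, had the smallest p with propionate (0.62 ± 0.14, limma, not passing), at 2.76 to 2.86 TPM in its 2 Wt1-high libraries, against 1.26 to 1.65 TPM in the Wt1-high controls. Next came Ighv1-69, Pagr1b, H2-DMb2 and Trbv13-1, at 0.997 to 2.13. With butyrate the smallest p was that of Usp2, a deubiquitinase gene under the circadian clock (-0.78 ± 0.14, limma adjusted p = 0.224), followed by Gm17119, Gm17530, Clic3 and Ufsp1, at -1.69 to -0.63. None of these passed.

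The combination gave 18 genes higher and none lower (0.12% and 0.0%) at an adjusted p under 0.05 in limma, beside 1317 above and 386 below control with a raw p under 0.05. Among the 18 were 5 parts of the T cell receptor complex: Trbc1, Trbv13-1, Cd3e, Cd3d and Cd247. Trbc1, a constant segment of the T cell receptor beta chain, was at 6.92 to 8.84 TPM in the 2 Wt1-high combination libraries and 0.23 to 3.72 TPM in the 3 Wt1-low ones, against 1.04 to 2.88 TPM in the 5 Wt1-high controls and 0 TPM in the Wt1-low control. The combination lay above control among Wt1-high libraries without overlap, a difference of 1.74 ± 0.33 with the class fitted (limma adjusted p = 0.0428). Cd247, the signalling zeta chain of the same receptor, was at 4.28 to 5.02 and 1.49 to 5.09 TPM in the combination, against 0.73 to 2.40 and 0.72 TPM in control (1.24 ± 0.22, limma adjusted p = 0.0382). Rnase6, an antimicrobial ribonuclease of myeloid cells, was at 13.7 to 25.7 and 6.03 to 10.1 TPM against 4.80 to 6.92 and 3.50 TPM (1.44 ± 0.24, limma adjusted p = 0.0382). Others were AW112010 (1.53 ± 0.27), the variable segment Trbv13-1 (1.41 ± 0.28, uncertain since such segments share reads), Cd3e (1.38 ± 0.26), the phosphatase gene Ptpn22 (1.33 ± 0.23), the DNase gene Dnase1l3 (1.27 ± 0.25), Cd3d (1.21 ± 0.23) and the adaptor gene Skap1 (1.14 ± 0.21).

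This count was fragile. It was 0 with a pseudocount of 0.1, with no filter on low values, without the class in the fit and with combination replicate 5 put among the Wt1-low libraries, and 200 (193 higher) with median-of-ratios scaling or 262 (236 higher) with quantile normalization. Putting butyrate replicate 3 with the Wt1-high libraries also gave 0, and log2 Wt1 in place of the class 405 (393 higher), both chosen after seeing the data. Leaving out a library mostly ended it: the count was 0 without combination replicates 1, 2 or 3, control replicates 5 or 6, propionate replicates 1 to 5 or butyrate replicate 5. It was 1 without control replicates 1 or 2, 1 lower gene and none higher without control replicate 4, 2 without combination replicate 4, and 6 without control replicate 3 or butyrate replicate 1. It was 20 without propionate replicate 6 and 24 without butyrate replicate 4, and grew to 154 (151 higher) without combination replicate 6, 157 (153 higher) without butyrate replicate 2 and 325 (318 higher) without butyrate replicate 6. All 12 analysed T and cytotoxic genes lay above control in the combination, with a median of 1.16, beside a median of 0.04 over all genes, and Cd3e and Cd3d passed. All 12 lay above the same controls with propionate (median 0.64) and butyrate (0.34) too, with none passing. In the 2 Wt1-high propionate libraries Trbc1 was at 6.02 and 6.52 TPM and Rnase6 at 15.2 and 18.7 TPM, inside or near the range of the Wt1-high combination libraries. Markers of other cells also lay above control in the combination, with none passing: 6 of 6 neutrophil genes (median 1.10), 12 of 12 macrophage (0.71), 11 of 12 adipocyte (0.71) and 5 of 5 erythroid (0.67). The same held for 9 of 9 class I genes (0.99) and 7 of 7 class II genes (0.93). Their part in the T cell values was not tested.

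**Figure D5:**
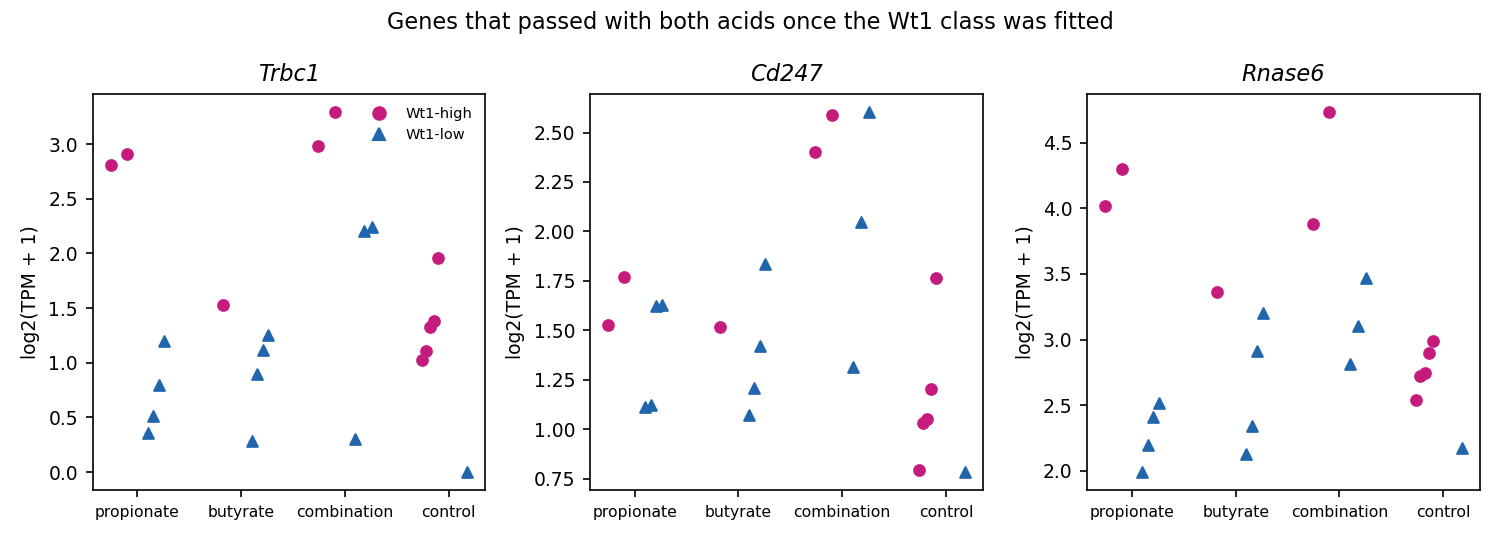
Trbc1, Cd247 and Rnase6 in log2(TPM + 1) by treatment, with circles for Wt1-high and triangles for Wt1-low libraries. In each panel the Wt1-high combination libraries lie above the Wt1-high control libraries, and the Wt1-low combination libraries overlap the controls in part.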

How the data were processed

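RNA of 24 mouse peritoneal samples was sequenced as stranded polyadenylated libraries, per the labels' protocols. The submitters' processing notes name fastp, HISAT2, StringTie and build mm39, and nothing used here states their versions or the annotation. Per the file header, the authors deposited TPM for 149132 transcripts, each library summing to 1000000, so depth is unknown and no counting interval can be given. Here TPM was summed by gene name (56422 names). Transcripts without a name held 0.174 to 0.470% and were left out. Values were analysed as log2(TPM + 1), which understates changes of low genes, in limma 3.58.1 (trend, robust) under R 4.3.3, with class and treatment in 1 fit, tested on simulated data. P-values are two-sided with Benjamini-Hochberg adjustment over 15006 genes. The class rule was written for 13 Wt1-low libraries; the table held 12, since butyrate replicate 3 met neither threshold.

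Members and lists were chosen with earlier results of these data known. Named genes are the 4 markers, the 15 genes called higher and 15 called lower of largest difference (mean log2 of 3 or more where higher, no predicted genes), up to 6 genes a list, and for treatments the 10 largest passing or 5 of smallest p. Genes below the filter and isozyme pairs were added after seeing values. Promoters are from RefSeq (GRCm38.p6), which held 27025 genes and windows for 10832 of those analysed; Wt1, Msln, Gata4, Nr5a1 and Star are named only. Correlations within a class are given without p-values, since Wt1 set the classes. Alternatives were another pseudocount, no filter, 2 scalings, a replicate block, other class choices and leaving out each library.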

Additional observations from a re-analysis of the deposited data

Results flagged for a closer look

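Combination replicate 5, in neither class, scored above all 22 classed libraries on 9 lists, a score being the mean log2(TPM + 1) of the analysed genes. Its T and cytotoxic score was 5.25 (0.577 to 2.66 in the classed libraries) and its B cell score 7.79 (1.45 to 3.76). Its class I score was 8.18 (4.92 to 7.45) and its interferon response score 5.03 (2.54 to 4.75). Adipocyte genes scored 9.43 (5.28 to 8.38), endothelial genes 5.23 (4.15 to 5.00), and epithelium and carcinoma genes 5.15 (0.726 to 4.69). The hepatocyte score was 8.43 (5.12 to 7.90) and the intestinal score 3.83 (1.61 to 3.22). In butyrate replicate 3, also in neither class, the fibroblast and matrix score was 7.45 (5.96 to 7.34), with 509 TPM of Col1a1. In 38 groups examined, with a cutoff set for the size of the Wt1-high class, no list score stood far from the others. Chance alone flags about 1 in 20. No such statement is made for the larger Wt1-low class. There the adipocyte score of combination replicate 2 was 8.38, against 6.25 to 7.30 in the other Wt1-low libraries.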

How the results depend on the processing

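The direction check covered 83 of the called genes, those under the rule for named genes, which kept it in 2820 of 2820 values. Called genes do not overlap between the classes. Leaving out a library, keeping a single treatment or dropping the treatment covariate therefore could not change their direction, and such values support nothing. The 15 list medians of 1 or more in size kept theirs in 510 of 510. Smaller list medians did change sign, for example those of fibroblast and matrix (-0.02), basement membrane (-0.17) and growth factor genes (-0.24) with median-of-ratios scaling. Quantile normalization turned those of basement membrane (-0.02), growth factor (-0.06) and mitochondrially encoded genes (0.09). Within propionate, short-chain fatty acid (0.12), hepatocyte (0.18), neutrophil (0.23), erythroid (0.15) and Schwann cell genes (0.04) turned positive. Within combination, basement membrane genes turned negative (-0.18). Genes called higher (3065) and lower (82) numbered 1401 and 794 after median-of-ratios scaling, 1166 and 857 after quantile normalization, 1439 and 14 with combination replicate 5 put with Wt1-low, and 744 and 1 at 2 log2 units. Within propionate alone (2 Wt1-high and 4 Wt1-low libraries) they were 5809 and 657, and within combination (2 and 3 libraries) 276 were lower. So few libraries separate more easily, so these counts cannot be set against those of the whole fit. With butyrate replicate 3 put with Wt1-high, chosen after seeing the data, 18 were lower. Leaving out 1 library gave 2757 to 3569 higher and 42 to 138 lower. Lists with a median of 1 or more (12) numbered 7, and those of -1 or less (3) 10, with median-of-ratios scaling. Those of -1 or less numbered 1 with combination replicate 5 in Wt1-low or butyrate replicate 3 in Wt1-high, and 1 to 4 without 1 library.

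Genes passing for the combination (18) were 0 with a pseudocount of 0.1, no filter, no class in the fit, combination replicate 5 in Wt1-low or butyrate replicate 3 in Wt1-high, 200 after median-of-ratios scaling, 262 after quantile normalization, 405 with log2 Wt1 in place of the class (chosen after seeing the data), and 0 to 325 without 1 library. For butyrate leaving out 1 library gave 0 to 1. The pooled Fisher exact adjusted p was 0.0495 to 0.323 without 1 library. On the TPM scale the Acta1 relation in the Wt1-high class had r = -0.645, and without the 2 farthest libraries r was -0.589, and 0.557 for Msln in the Wt1-low class. The cause of these changes was not tested.

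Replicate numbers of the titles gave no clear pairing: over 30 pairs of libraries with the same title number, the median correlation of their deviations was -0.03 (-0.45 to 0.36). The library numbers in the deposited column names differ from these for many samples, and pairing by them was not tested. A replicate block by title number gave 2985 genes higher and 85 lower, and 0 passing for the combination. Depth is unknown, so genes near 0 TPM cannot be given a limit.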
